A study of Homo sapiens with 480 samples.

Results

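Single-cell transcriptomes of reprogramming intermediates at day 8 were compared, over all genes, with those of the BJ fibroblasts from which they were started. BJ is an established line of human neonatal fibroblasts. The day 8 cells had expressed the factors SOX2, KLF4, MYC and OCT4 (POU5F1) from virus, with 8 days since induction, and the BJ cells, labelled wild type, were given none. Cells were kept where at least 2000 genes stood at 1 or more after each cell had been rescaled to a total of 1000000, which left 92 of 96 day 8 cells and 92 of 96 BJ cells, together 184 of the 480 cells of the series. The other groups of the series, cells at day 2 and sorted fractions of day 16, are used only where the levels of a gene are set beside these 2. The labels' protocols give trypsinized cells, capture on Fluidigm C1 mRNA chips and sequencing of polyadenylated RNA. Since no label tells cultures, infections or chips apart, a group stands for 1 culture here and its cells are not replicates of a condition.

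A fibroblast is a mesenchymal cell that secretes collagen and fibronectin and anchors itself to them through actin stress fibres. During reprogramming with these factors, cells are known to lose that matrix and cytoskeletal programme and to gain keratins and cell-cell junction proteins, a mesenchymal-to-epithelial transition, before the network of pluripotency regulators is switched on.

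After 8 days the cells had less RNA of collagens, fibronectin, contractile proteins and AP-1 factors, relative to all their RNA, and more of simple keratins, H19, aldo-keto reductases and cholesterol enzymes. Fibronectin (FN1) averaged 50.1 at day 8 and 1181 in BJ, and keratin 8 (KRT8) 1230.2 at day 8 and 4.72 in BJ. SOX2 was detected in 76 of 92 day 8 cells and 2 of 92 BJ cells, while CDH1 was found in 12 day 8 cells and NANOG in 6, against 1 and 0 BJ cells.

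Levels are given as rescaled FPKM (fragments per kilobase of transcript, scaled to library size), so that they are on a per-length scale, and a gene counted as detected in a cell at 1 or more. The median kept cell had 5915 detected genes at day 8 and 5678 in BJ, and 4 day 8 cells and 8 BJ cells had under 4000. Small RNA genes took a median of 0.407% of a cell's total at day 8 and 0.326% in BJ, but over 20% in 1 day 8 cell and 5 BJ cells. The read depth behind each cell is unknown. The labels give serum-containing medium for BJ cells and no medium for day 8 cells, so factors, medium, capture and sequencing run cannot be told apart in any difference reported here. The groups are 2 separate tables, and whether they were normalized together is not stated. A set of 15 genes followed the table more than the time: each was detected in at least 80% of cells in BJ, at day 2 and in the TRA-1-60 positive fraction of day 16, and in at most 25% of cells at day 8 and in the negative fraction. ZNF628 (0.435 at day 8 and 292 in BJ) and GOLGA2P6 (0.0678 at day 8 and 270.3 in BJ) are examples, and no gene showed the reverse. These 15 are left out of the named genes below.

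The BJ cells carried the fibroblast genes COL1A1, COL1A2, FN1, THY1 and VIM, each detected in 100% of them, while DCN, a proteoglycan of many fibroblasts, was detected in 38.04% and PDGFRA in 58.7%. In day 8 cells the same genes were found at shares of 73.9% (COL1A1), 97.8% (COL1A2), 55.4% (FN1), 94.6% (THY1), 98.9% (VIM), 23.9% (DCN) and 31.5% (PDGFRA). Most of these genes were thus present in most day 8 cells, at levels described below.

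Of 27021 genes in the tables, 12720 were measured, that is, had a mean of at least 1 in either group. The effect of a gene was the log2 ratio of its means, day 8 over BJ, with a pseudocount of 1, and a gene was called at a log2 ratio of at least 1 in size, which is a 2-fold difference. By this rule 1941 genes (15.3% of those measured) were higher at day 8 and 2004 (15.8%) were lower, together 31% of them. A difference of 8-fold or more was seen for 243 genes in the higher direction and 164 in the lower. The median log2 ratio over all measured genes was 0.04. No test was run and no difference has a replicate check. The balance of the calls depended on the scale: when cells were averaged as log2(value + 1), 1619 genes were higher and 630 lower by the same threshold, so that 71.99% of calls were higher, against 49.2% by the ratio of means.

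**Figure D1:**
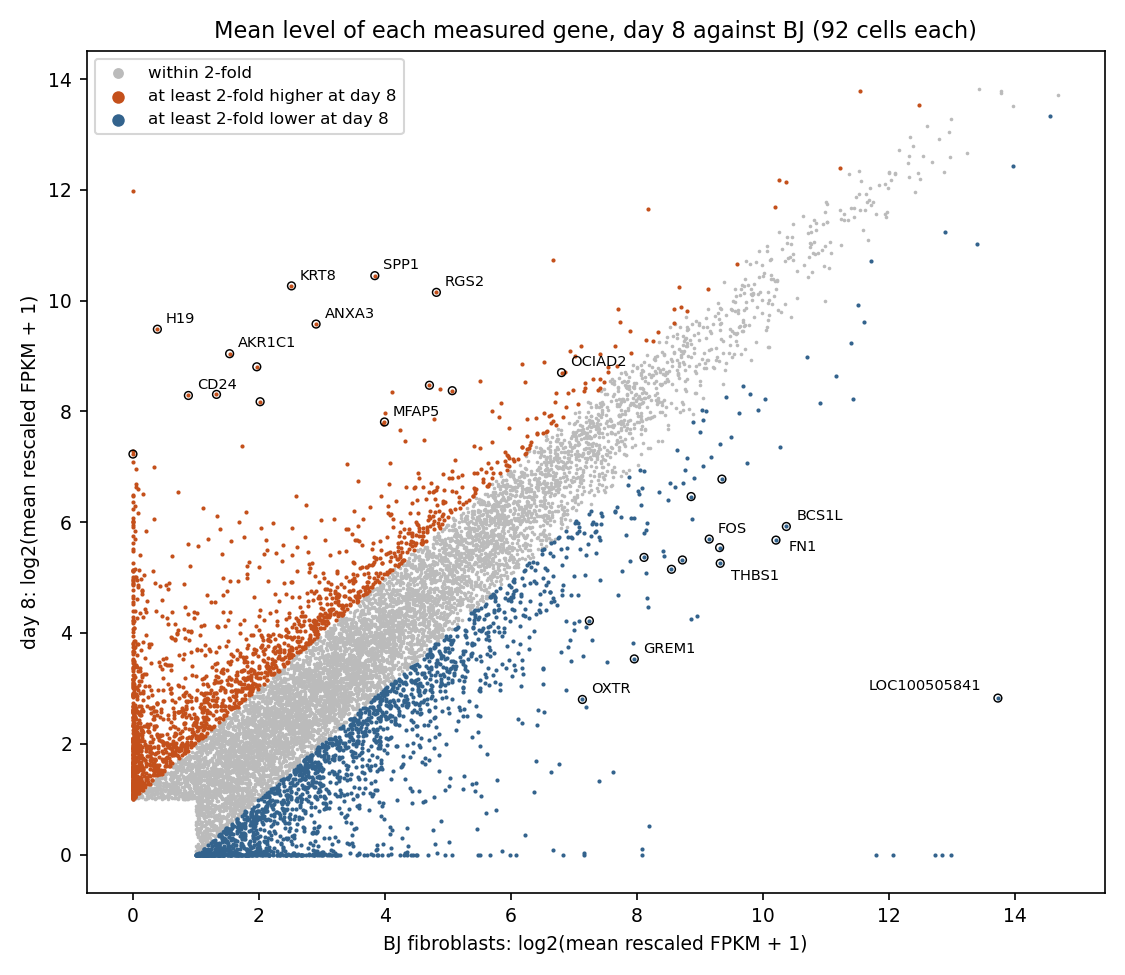
Each point is 1 of 12720 measured genes, with its mean level over 92 day 8 cells on the vertical axis and over 92 BJ cells on the horizontal axis, both as log2(mean rescaled FPKM + 1). Orange and blue points are at least 2-fold higher or lower at day 8, and rings mark 29 genes of the naming rule, with H19, KRT8 and SPP1 at the upper left and LOC100505841, FN1 and GREM1 at the lower right.

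Some points at the edges of that plot rest on single cells and lie outside the naming rule. MIR558 averaged 8123 in BJ, all of it from 1 cell, and was listed at 0 at day 8, and SNORD126 averaged 4022 at day 8, with 100% of it from 1 cell, and was listed at 0 in BJ.

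The genes named first are the 15 highest and the 15 lowest at day 8 by the difference of mean log2 values, among those with a mean of at least 10, a 2-fold ratio of means and shares of cells at least 25 percentage points apart; 369 genes met these conditions as higher and 288 as lower. The highest were led by H19, an imprinted noncoding RNA of fetal tissues. H19 had 0, 610.4 and 3381 as its lowest, median and highest value over the day 8 cells, against 0, 0 and 13.6 over the BJ cells. Nearly every day 8 cell was high and nearly every BJ cell was at 0: 84 of 92 day 8 cells stood above the highest BJ cell. It was detected in 96.7% of day 8 cells (exact 95% interval 90.8 to 99.3%) and 4.35% of BJ cells (1.20 to 10.8%), a log2 ratio of means of 9.10. IGF2, its neighbour in the same imprinted cluster and a fetal growth factor, averaged 91.9 at day 8 and 0.637 in BJ, and 81 day 8 cells were above any BJ cell.

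KRT8, a keratin of simple epithelia, came next. Its lowest, median and highest values were 0.91, 957 and 6773 at day 8 and 0, 0 and 88.3 in BJ. The groups overlapped only at the low end of the day 8 cells, since 70 of them lay above the highest BJ cell. KRT8 averaged 1230.2 at day 8 and 4.72 in BJ (log2 ratio 7.75), with shares of 97.8% of day 8 cells (interval 92.4 to 99.7%) and 23.9% of BJ cells (15.6 to 33.9%). ANXA3, a calcium-dependent phospholipid-binding annexin, ranged over 0, 789.7 and 3049 at day 8 and 0, 0 and 121 in BJ, with 68 day 8 cells above every BJ cell. AKR1C1, an aldo-keto reductase of steroids and reactive carbonyls, ranged over 0, 264 and 4526 at day 8 and 0, 0 and 109 in BJ, with 62 above. Both genes were thus high in most day 8 cells and at 0 in the median BJ cell.

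Other genes among the 15 highest were a phospholipase (PLA2G16), C19orf33, the surface glycoprotein CD24, the brain-type creatine kinase CKB, the G-protein regulator RGS2, LOC100505817, the surface protein CD83, the secreted glycoprotein osteopontin (SPP1), the microfibril protein MFAP5, OCIAD2 and the uridine phosphorylase UPP1. Their means ran from 149 (LOC100505817) to 1398 (SPP1) at day 8. In BJ they ran up to 111 (OCIAD2), and LOC100505817 was listed at 0 in every cell. CD24 averaged 311 at day 8 and 0.841 in BJ and was detected in 77 day 8 cells and 3 BJ cells. SPP1 was the most uneven, with 0, 174 and 12975 as lowest, median and highest at day 8 and 0, 0 and 188 in BJ, so that 46 day 8 cells exceeded the BJ range and the others lay within it. For OCIAD2, CKB and MFAP5 the highest BJ cells reached far up (6105, 1258 and 769), and only 0, 4 and 2 day 8 cells stood above them, although their shares of cells differed as for the rest.

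The genes that stood lowest at day 8 included several that encode secreted proteins of the matrix and of signalling. FN1, the adhesive matrix protein fibronectin, had 0, 2.52 and 1072 as its lowest, median and highest value at day 8, against 162, 973 and 5280.3 in BJ. Every BJ cell was high, while 85 of 92 day 8 cells lay below the lowest BJ cell. FN1 averaged 50.1 at day 8 and 1181 in BJ (log2 ratio -4.53) and was detected in 55.4% of day 8 cells (interval 44.7 to 65.8%) and 100% of BJ cells (96.1 to 100%). Even among the cells that held it, the median was 16.9 at day 8 and 973 in BJ, so share and level per cell were both lower.

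THBS1, the matricellular protein thrombospondin 1, ranged over 0, 4.84 and 488 at day 8 and 52.9, 522 and 2172 in BJ, and 71 day 8 cells were below every BJ cell. GREM1, a secreted BMP antagonist, ranged over 0, 0 and 166 at day 8 and 1.72, 160.1 and 1391 in BJ, with 71 day 8 cells below the lowest BJ cell. DKK1, a secreted Wnt antagonist, averaged 38.9 at day 8 and 422 in BJ and was detected in 22 day 8 cells and 87 BJ cells. These secreted proteins were therefore held by a minority of day 8 cells (DKK1, GREM1) or by a majority at low level (FN1, THBS1).

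The remaining lowest genes were the oxytocin receptor OXTR, the immediate-early factor FOS, the collagen chain COL1A1, the collagen cross-linking enzyme LOXL2, the helix-loop-helix inhibitors ID2 and ID3, the IGF-binding protein IGFBP3, the mitochondrial assembly factor BCS1L, and LOC100505841 and RPL13AP5. OXTR averaged 5.96 at day 8 and 139.5 in BJ (log2 ratio -4.33), and FOS 50.8 at day 8 and 566 in BJ (-3.45). COL1A1 ranged over 0, 7.74 and 919 at day 8 and 19.2, 443 and 3304 in BJ, with 59 day 8 cells below every BJ cell. BCS1L and LOC100505841 varied with the table in part. BCS1L averaged 1325 in BJ and 2181 at day 2, then 59.6 at day 8, and at day 16 2466 in positive and 69.9 in negative cells, and LOC100505841 13591, 8874, 6.08, 511 and 24.97. RPL13AP5 is a pseudogene copy of a ribosomal protein gene, whose reads can be split between copies, so its level (109 at day 8 and 651 in BJ) is uncertain.

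**Figure D2:**
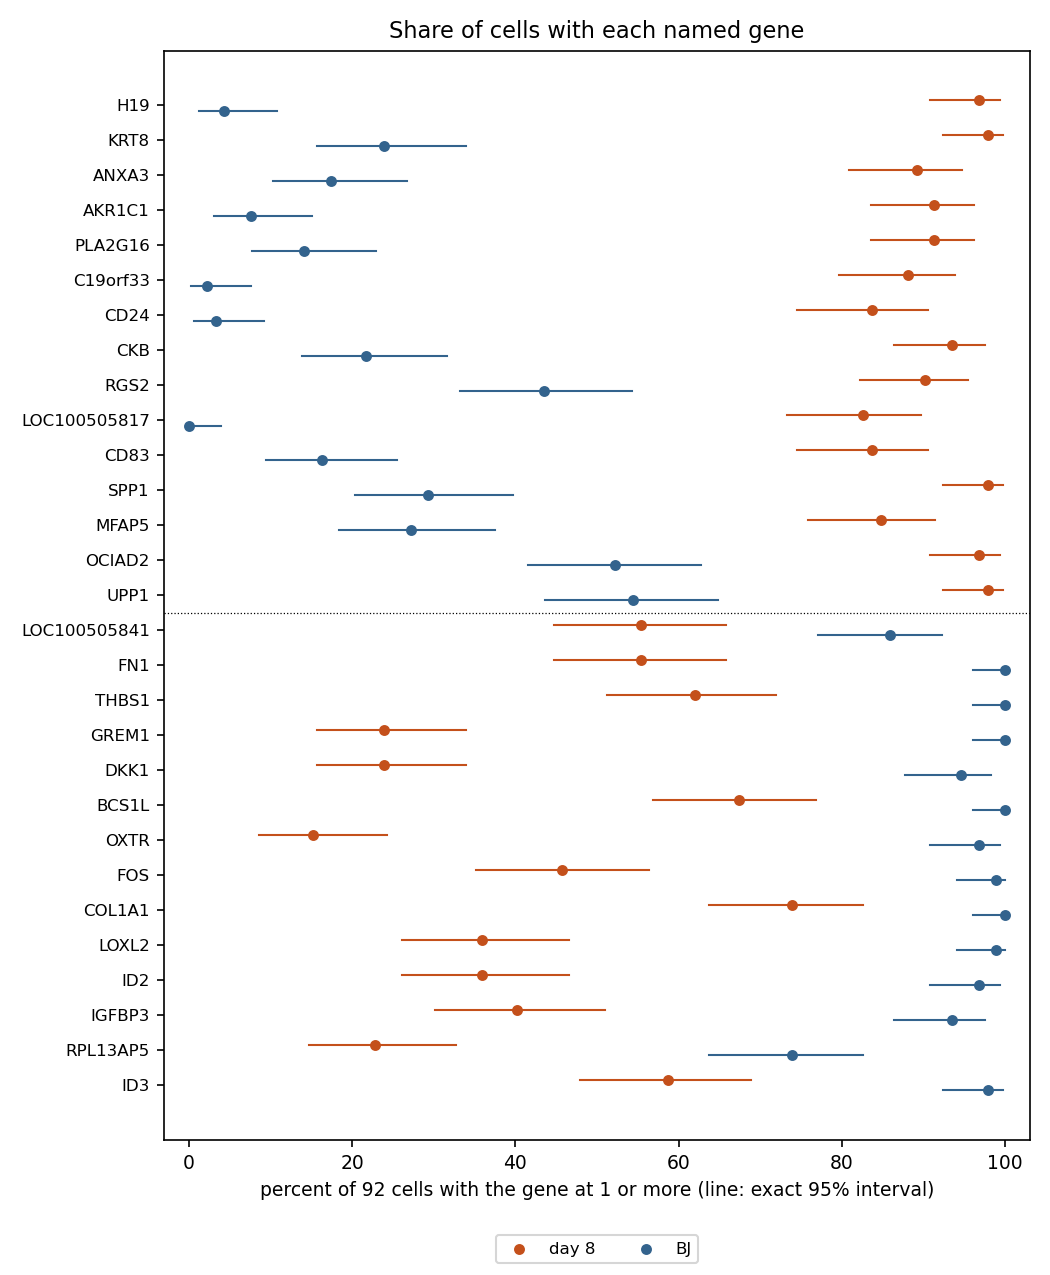
Percent of 92 cells per group in which each of 15 highest (above the dotted line) and 14 lowest genes was detected, with exact 95% binomial intervals that cover counting error only; orange is day 8 and blue is BJ. The genes were chosen for shares at least 25 percentage points apart, and they run from H19 at 96.7% of day 8 and 4.35% of BJ cells to LOC100505841 at 55.4% and 85.9%.

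**Figure D3:**
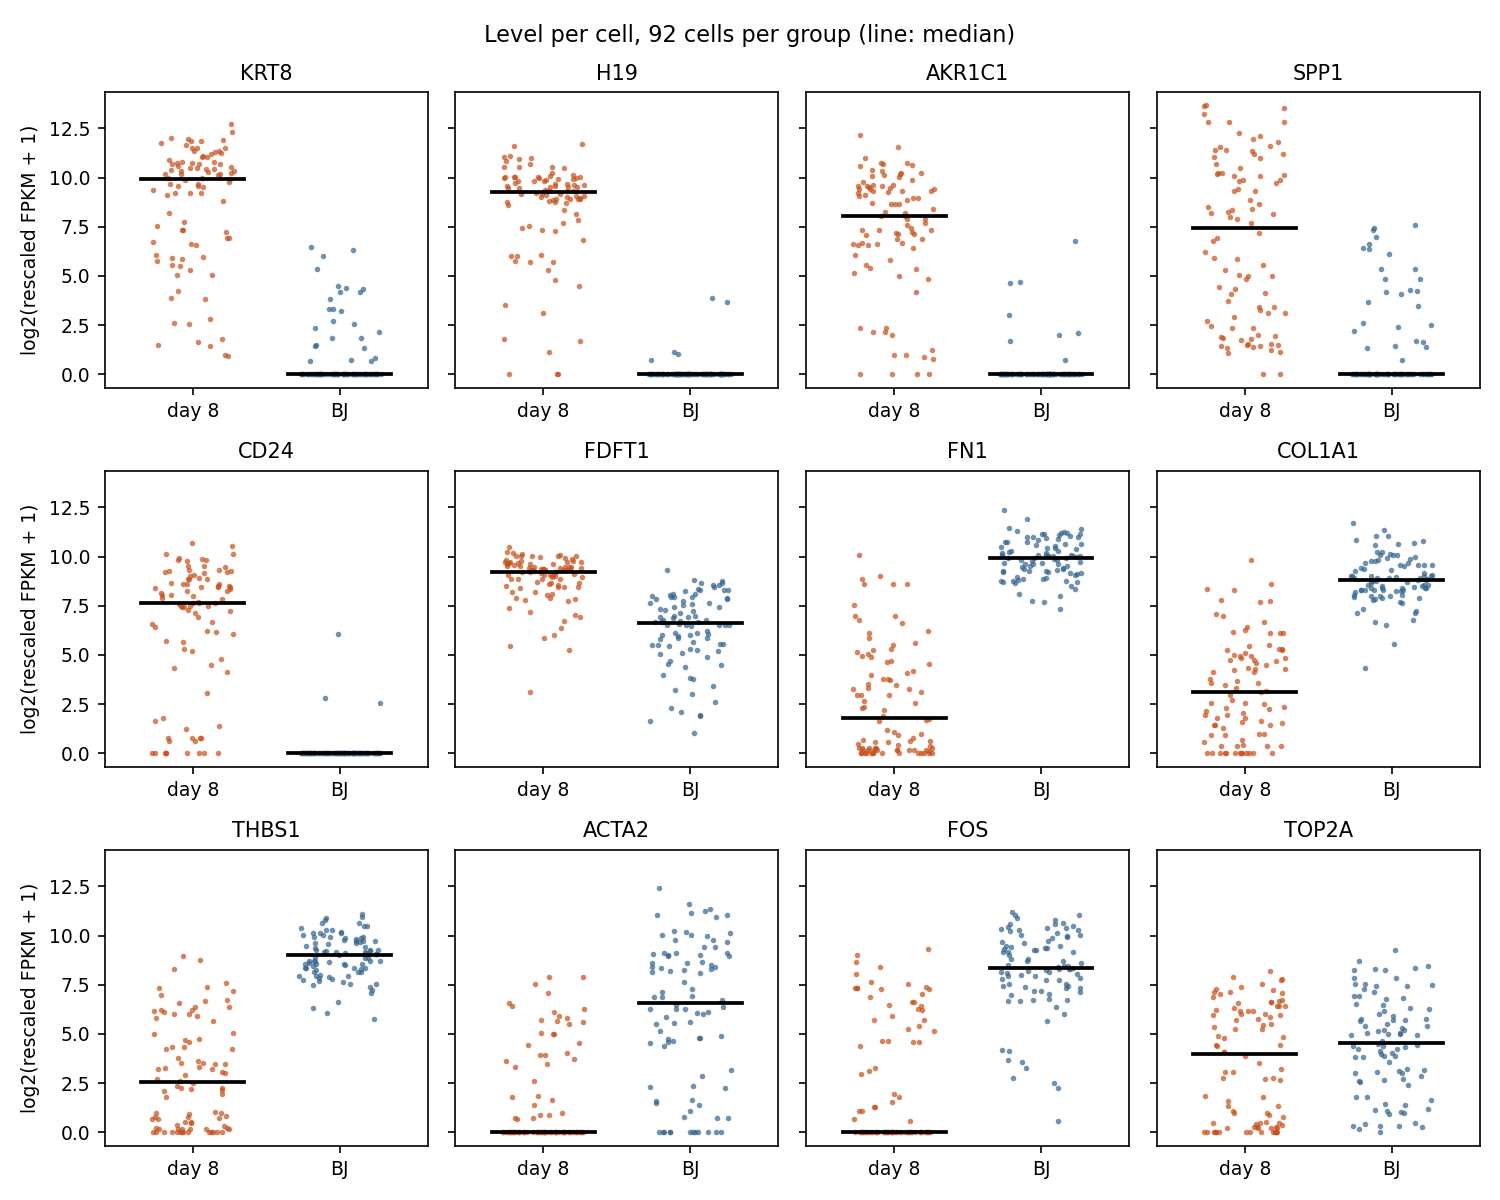
Level of 12 genes in each of 92 day 8 cells (left) and 92 BJ cells (right) as log2(rescaled FPKM + 1), with the median as a line. KRT8, H19, AKR1C1 and CD24 have a BJ median of 0. FN1, COL1A1 and THBS1 were detected in every BJ cell, with lowest BJ values of 162, 19.2 and 52.9. Day 8 cells spread widely for each of these genes, and TOP2A overlaps widely.

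Collagen genes were lower at day 8 almost as a family. Of 17 measured collagen chains, 15 were at least 2-fold lower and 1, COL14A1, was higher, with a median log2 ratio of -1.86 against 0.04 over all genes. COL1A2, which pairs with COL1A1 in type I collagen, averaged 285 at day 8 and 1917 in BJ, and COL6A3, a chain of the microfibrillar type VI collagen, 33.7 at day 8 and 216 in BJ. The basement membrane chains COL4A1 and COL4A2 averaged 24.8 and 24.9 at day 8, against 133 and 111 in BJ. COL5A2 averaged 45.03 at day 8 and 84.9 in BJ (log2 ratio -0.90) and was the 1 measured chain that passed the threshold in neither direction. The median day 8 cell had 10 of 19 chains detected (range 4 to 15), against 15 (range 8 to 18) in BJ, and 26 day 8 cells had a summed collagen level below that of every BJ cell.

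Enzymes and carriers that fold, cross-link and secrete collagen were lower alongside. Of 25 measured members, 15 were at least 2-fold lower and none was higher (median -1.31). FKBP10, a collagen prolyl isomerase, averaged 1.22 at day 8 and 42.01 in BJ. The lysyl oxidase LOX averaged 10.3 at day 8 and 71.2 in BJ, and SERPINH1, the collagen chaperone, 53.3 at day 8 and 225 in BJ. CREB3L1, a membrane-bound factor that drives collagen genes, averaged 1.58 at day 8 and 18.9 in BJ. The general endoplasmic reticulum enzymes P4HB (258 at day 8 and 424 in BJ) and PPIB (2187 at day 8 and 3262 in BJ) did not pass the threshold.

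Other matrix proteins were split. Of 32 measured glycoproteins and proteoglycans 17 were lower and 5 higher (median -1.11). Beside FN1 and THBS1, the lower ones included elastin (ELN, 0.387 at day 8 and 19.5 in BJ), the elastic fibre protein FBLN5 (12.4 at day 8 and 119 in BJ), biglycan (BGN, 4.19 at day 8 and 71.2 in BJ) and CTHRC1 (16.2 at day 8 and 145 in BJ). The higher ones were MFAP5, the laminin chain LAMA4 (52.2 at day 8 and 2.38 in BJ), the fibrillin FBN2 (13.6 at day 8 and 3.41 in BJ), nidogen 2 (NID2, 16.2 at day 8 and 4.79 in BJ) and FMOD. The laminin chain LAMC1 averaged 31.7 at day 8 and 18.8 in BJ (log2 ratio 0.72). In BJ, 1 cell held 73.8% of the LAMA4 total, so most BJ cells lay lower still.

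Among 18 measured matrix proteases and inhibitors, 4 were higher and 4 lower (median -0.07), but by mean log2 values 2 were higher and 7 lower (median -0.29). Tissue plasminogen activator (PLAT) averaged 132 at day 8 and 9.59 in BJ and urokinase (PLAU) 59.2 at day 8 and 16.4 in BJ, while the urokinase receptor PLAUR (78.8 at day 8 and 266 in BJ) was lower. MMP1 and MMP3, the interstitial collagenase and stromelysin, had means within 2-fold (46.9 at day 8 and 77.9 in BJ for MMP1, 31.6 at day 8 and 32.4 in BJ for MMP3), but 1 day 8 cell held 83.8% of the MMP1 total and another 99.6% of that of MMP3. They were detected in 15.2% and 3.26% of day 8 cells and in 68.5% and 51.1% of BJ cells.

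Of 15 fibroblast surface markers 9 were lower and 4 higher (median -1.06). The stromal marker CD248 averaged 17.7 at day 8 and 134 in BJ, the PDGF receptor PDGFRB 2.85 at day 8 and 22.6 in BJ, and the hyaluronan receptor CD44 111 at day 8 and 232 in BJ. The tetraspanin CD9 (924 at day 8 and 206 in BJ) and the ectonucleotidase NT5E (88.2 at day 8 and 40.997 in BJ) were on the higher side. Among the integrins, the fibronectin receptor subunits ITGA5 (18.7 at day 8 and 73.5 in BJ) and ITGB1 (121 at day 8 and 276 in BJ) were lower, and the laminin receptor subunits ITGA6 (33.6 at day 8 and 8.45 in BJ) and ITGB4 (5.18 at day 8 and 0.108 in BJ) were higher. Over the 12 measured integrins, 4 were lower and 3 higher.

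Contractile and actin-binding genes were lower at day 8 in 21 of 28 measured members and higher in 2, ACTG2 and TMSB4X (median -1.24). ACTA2, the actin of smooth muscle and myofibroblasts, ranged over 0, 0 and 235 at day 8 and 0, 95.7 and 5389.7 in BJ, the lowest, median and highest cell. All day 8 cells lay within the lower part of the BJ range. TAGLN, an actin cross-linker, averaged 296 at day 8 and 2748 in BJ, and 26 day 8 cells were below every BJ cell. The tropomyosins TPM1 and TPM2 averaged 599 and 786 at day 8, against 2708 and 3102 in BJ. Unlike the collagen chains, these genes were still detected in nearly as many kinds per cell, with a median of 23 of 28 at day 8 and 25.5 in BJ. The actin-sequestering thymosins differed from each other: TMSB4X averaged 11819.9 at day 8 and 5713 in BJ, and TMSB10 10364 at day 8 and 24100.3 in BJ.

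Transcription factors of the AP-1 family, which respond to serum and adhesion signals, were the list with the lowest median by the ratio of means. Of 11 measured members 9 were lower and none higher, with a median log2 ratio of -1.997. By mean log2 values 7 of the 11 were lower (median -1.41), and collagen chains had a lower median (-2.20). FOS ranged over 0, 0 and 634 at day 8 and 0.473, 330.1 and 2385 in BJ, with 48 day 8 cells below the lowest BJ cell. FOSB averaged 4.43 at day 8 and 68.5 in BJ, JUN 4.36 at day 8 and 20.4 in BJ, and JUNB 5.11 at day 8 and 24.9 in BJ, while MAFG and BATF3 passed in neither direction. The phosphatase DUSP1, an immediate-early gene outside the list that was picked after its values were seen, averaged 33.01 at day 8 and 283 in BJ.

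TEAD factors bind DNA with the co-activator YAP and pass on signals of stiffness and spreading. Of 18 measured genes of this list 8 were lower and 2 higher (median -0.96). The matricellular targets CYR61 and CTGF averaged 40.8 and 111 at day 8, against 345 and 480.5 in BJ, the receptor kinase AXL 17.7 at day 8 against 116 in BJ, and YAP1 itself 2.91 at day 8 against 9.35 in BJ. Tissue factor (F3) stood the other way, at 116 at day 8 and 29.2 in BJ. The TEAD letters GGAATG, searched on both strands, were found in 12.7% of promoters of higher genes, 12.97% of those of lower genes and 11.3% of those of all measured genes, among 9932 measured genes with a RefSeq promoter (GRCh38.p14, 250 bases before to 50 after the start). KRT8 and THBS1, from the 2 ends of the comparison, are shown because each holds these letters once, in capitals below, in a window on the strand of the gene (chr12:52926420-52926719, minus strand, and chr15:39580829-39581128, plus strand).
KRT8: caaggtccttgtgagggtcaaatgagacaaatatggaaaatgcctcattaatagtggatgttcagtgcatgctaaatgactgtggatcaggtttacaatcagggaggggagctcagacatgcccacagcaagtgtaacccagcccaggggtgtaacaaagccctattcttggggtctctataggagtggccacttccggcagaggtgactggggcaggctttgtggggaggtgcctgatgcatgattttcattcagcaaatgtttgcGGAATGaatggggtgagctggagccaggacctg
THBS1: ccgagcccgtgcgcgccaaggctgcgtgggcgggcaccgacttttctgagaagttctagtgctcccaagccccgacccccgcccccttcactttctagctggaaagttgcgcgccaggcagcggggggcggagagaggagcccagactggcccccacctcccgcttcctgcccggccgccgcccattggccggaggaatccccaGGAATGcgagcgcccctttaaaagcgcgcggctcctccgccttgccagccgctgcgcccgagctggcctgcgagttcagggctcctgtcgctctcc

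TGF-beta and BMP genes had 10 of 23 measured members lower and 2 higher (median -0.71). All 4 ID genes, which BMP signals turn on and which block helix-loop-helix factors, were lower: ID1 averaged 259 at day 8 and 973 in BJ, ID2 40.2 at day 8 and 276 in BJ, ID3 87.2 at day 8 and 464 in BJ, and ID4 0.755 at day 8 and 3.17 in BJ. Antagonists went both ways. GREM1, described above, was lower, as was FST, an activin-binding protein, at 2.09 at day 8 and 23.9 in BJ. The membrane-bound inhibitor BAMBI was called higher. The ligand BMP4 was the other higher member, at 18.2 at day 8 and 0.954 in BJ, and was detected in 26.1% of day 8 cells and 2.17% of BJ cells. Receptors mostly lay within 2-fold, such as TGFBR2 (14.8 at day 8 and 9.85 in BJ) and BMPR2 (4.13 at day 8 and 6.25 in BJ), but ACVR1 was lower.

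Mesenchymal transcription factors were lower in 10 of 22 and higher in 1, MEOX2 (median -0.87). SNAI2, a repressor of epithelial genes, averaged 12.6 at day 8 and 60.002 in BJ and was detected in 28.3% of day 8 cells and 85.9% of BJ cells. ZEB1, another such repressor, averaged 9.02 at day 8 and 21.3 in BJ, and the limb and dermal factor PRRX1 9.55 at day 8 and 26.998 in BJ. TWIST1 averaged 7.46 at day 8 and 55.9 in BJ, but 1 BJ cell held 62.7% of its BJ total, while TWIST2 stood at 72.6 at day 8 and 82.6 in BJ. Wnt genes had 5 of 19 lower, with FZD2 (5.12 at day 8 and 35.7 in BJ) beside DKK1, and 4 higher, with the nuclear effector TCF7L2 at 19.5 at day 8 and 3.53 in BJ. Growth factor ligands and receptors were divided, 8 higher and 7 lower of 26: FGF2 averaged 1.16 at day 8 and 10.1 in BJ and NRG1 4.66 at day 8 and 36.8 in BJ, whereas the ERK pathway inhibitors SPRY1 (12.5 at day 8 and 0.00971 in BJ) and DUSP4 (19.9 at day 8 and 0.156 in BJ) were higher. The filter favoured higher calls in both lists. Through the day 8 mean alone, 7 of the 26 growth factor genes and 3 of the 19 Wnt genes were measured, and none through the BJ mean alone. By mean log2 values the split was 4 higher and 6 lower for growth factor genes and 1 higher and 5 lower for Wnt genes. NRG1 varied with the table in part, being detected in 97.8% of cells in BJ and 94.8% at day 2, then 26.1% at day 8, and at day 16 in 93.7% of positive and 8.24% of negative cells.

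Epithelial genes stood higher at day 8, but unevenly. Of 4 measured simple keratins KRT8, KRT18 and KRT19 were higher and KRT7 lower. KRT18, the partner of KRT8 in filaments, ranged over 90.3, 2692 and 13042 at day 8 and 0, 195 and 2304 in BJ and was already detected in 94.6% of BJ cells. KRT19 averaged 166 at day 8 and 2.32 in BJ, with shares of 58.7% at day 8 and 18.5% in BJ, and KRT7 23.02 at day 8 and 102 in BJ. The summed level of the simple keratins was above that of every BJ cell in 62 of 92 day 8 cells.

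Of 43 genes of epithelial junctions and their regulators 29 were measured, of which 21 were at least 2-fold higher and 2 lower, PKP3 and MUC1. For 20 of the 29 only the day 8 mean reached the filter, which favours a higher call, so the count is read over all 43 and against single cells. Some of them were widespread at day 8. SPINT2, a membrane protease inhibitor, ranged over 0, 55.4 and 1159 at day 8 and 0, 0 and 1.41 in BJ, with 66 day 8 cells above any BJ cell. JUP, the junction protein plakoglobin, averaged 18.3 at day 8 and 0.452 in BJ, detected in 83.7% of day 8 cells and 7.61% of BJ cells, and F11R, a tight junction adhesion molecule, 12.4 at day 8 and 0.0263 in BJ, in 51.1% of day 8 and 1.09% of BJ cells. The defining adhesion genes of epithelia were held by few cells. CDH1, the epithelial cadherin, was detected in 13.04% of day 8 cells (interval 6.93 to 21.7%) and 1.09% of BJ cells (0.03 to 5.91%), and EPCAM, an epithelial surface glycoprotein, in 15.2% of day 8 cells (8.58 to 24.2%) and 2.17% of BJ cells (0.26 to 7.63%). On the scale of mean log2 values only 7 of the 29 passed the threshold, none lower. Desmoplakin (DSP) was common in both groups, in 69 of 92 day 8 cells and 72 of 92 BJ cells.

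Genes of stratified keratinocytes were measured for 9 of 20, of which 8 were higher and KRT10 lower, with 7 of the 9 measured through the day 8 mean alone. They too came from few cells: KRT6A, a keratin of activated epidermis, averaged 59.3 at day 8, where 20.7% of cells held it, and was listed at 0 in every BJ cell. KRT14 was detected in 14.1% of day 8 cells and also listed at 0 in BJ. The keratinocyte regulator TP63 was detected in 0 of 92 day 8 cells, which allows a share of up to 3.26% (3 counts of 92), and IVL was listed at 0 in both groups. By mean log2 values 2 of the 9 passed as higher and 1 as lower.

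Epithelial and collagen genes were detected side by side in single cells, by the threshold of 1 or more. The median day 8 cell had 8 of 43 epithelial genes (range 2 to 32), against 4 (range 0 to 10) in BJ, and 28 day 8 cells had more than any BJ cell. Over the 92 day 8 cells the number of epithelial genes and the number of collagen chains had a Pearson r of 0.13, which describes cells of 1 culture that also share a dependence on the number of genes detected (r 0.37 for epithelial genes and 0.52 for collagen chains). KRT8 and FN1 were both detected in 49 of 92 day 8 cells (53.3%), KRT8 alone in 41, FN1 alone in 2 and neither in 0. In BJ both were detected in 22 cells and FN1 alone in 70. KRT8 and COL1A1 were both found in 66 day 8 cells and in 22 BJ cells. KRT8 without FN1 was found in 0 of 92 BJ cells, which had to be so because FN1 was detected in all 92. With KRT8 in 90 of 92 day 8 cells, the joint counts there follow mostly from the shares of FN1 and COL1A1. They do not show whether the genes go together. Detection at 1 or more does not show like levels. In the day 8 cells with FN1 at 109 or more, a cutoff chosen after the values were seen, KRT8 ran from 0.91 to 120, against 957 in the median day 8 cell. In those with FN1 at 0 it ran from 4.89 to 6773, so low KRT8 was also found without FN1. A single cell was set apart after its values were seen. The day 8 cell with the most epithelial genes held 32 of 43, with 25 in the next, and it had the most detected genes of any day 8 cell, 8985. It held keratinocyte and envelope genes such as KRT6A and EVPL, and EVPL was detected in 0 of the 91 other day 8 cells. Without that cell 1914 genes were higher and 2009 lower.

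**Figure D4:**
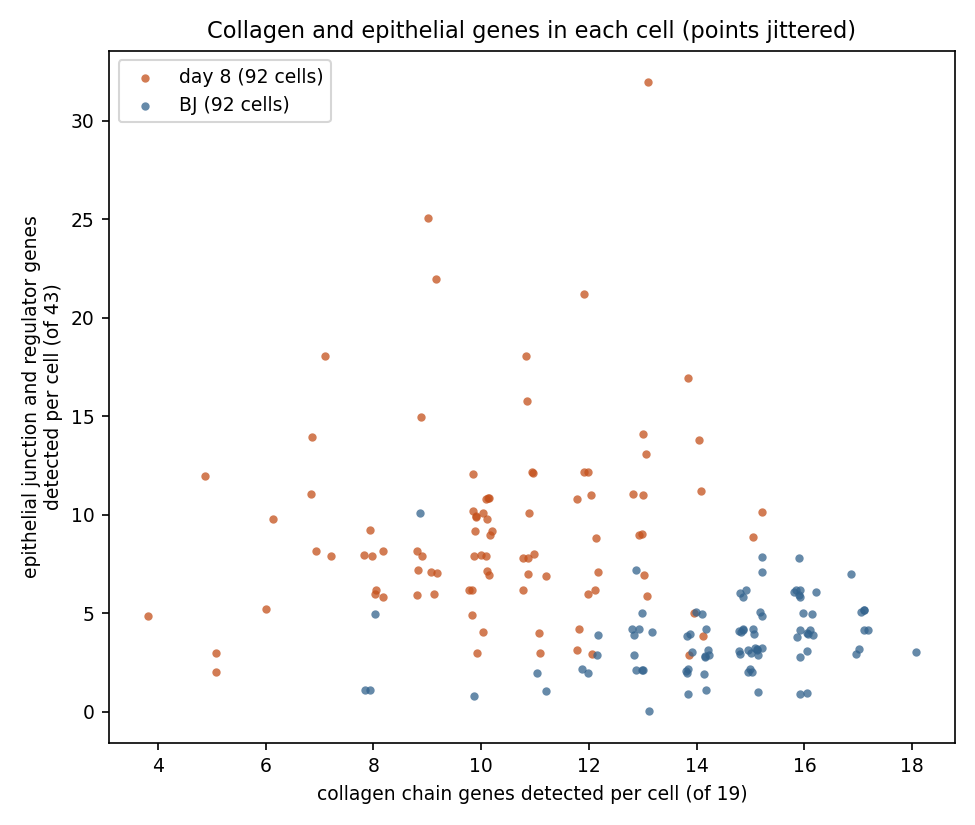
Number of 43 epithelial junction and regulator genes (vertical) against number of 19 collagen chain genes (horizontal) detected in each of 92 day 8 cells (orange) and 92 BJ cells (blue), with points jittered. Day 8 cells lie to the left of and above most BJ cells, with medians of 8 epithelial genes and 10 collagen chains at day 8 against 4 and 15 in BJ, and 1 day 8 cell stands apart at 32 epithelial genes.

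Of the factors themselves, SOX2 ranged over 0, 48.05 and 221 at day 8 and 0, 0 and 9.97 in BJ and was detected in 82.6% of day 8 cells (interval 73.3 to 89.7%) and 2.17% of BJ cells (0.26 to 7.63%). MYC averaged 375 at day 8 and 44.5 in BJ, with a median cell at 201 at day 8 and 11.5 in BJ, and KLF4 10.9 at day 8 and 7.45 in BJ, within 2-fold. SOX2 and MYC were detected together in 75 of 92 day 8 cells and in 1 of 92 BJ cells. Viral and endogenous RNA of a factor share a value, so these levels do not separate them. No level is read for POU5F1: it was listed at 0 in all day 8 cells, and its neighbours in the major histocompatibility complex were near 0 as well, among them the tubulin gene TUBB (0.0128 at day 8 and listed at 0 in BJ) and the kinase subunit gene CSNK2B (0.0096 at day 8 and 0.05 in BJ).

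Most pluripotency genes stayed under the filter in both groups. Of 30 on the list 11 were measured, 8 were higher, SOX2 included, and 1, DPPA2, was lower through a single BJ cell. Again 8 of the 11 were measured through the day 8 mean alone. L1TD1, which encodes an RNA-binding protein of embryonic stem cells, ranged over 0, 24.1 and 389.6 at day 8 and 0, 0 and 46.5 in BJ, and 36 day 8 cells were above any BJ cell. The noncoding RNA ESRG was detected in 40 day 8 cells and listed at 0 in BJ, TRIM71 in 19 day 8 cells and 0 BJ cells, GDF3 in 27 day 8 cells and 1 BJ cells, and TDGF1, the Nodal co-receptor, in 18 day 8 cells and 1 BJ cells. NANOG was detected in 6 day 8 cells (6.52%, interval 2.43 to 13.7%) and in 0 BJ cells. DPPA3, ZFP42 and PRDM14 were listed at or near 0 in both groups, and LIN28A was detected in 2 day 8 cells. The median day 8 cell had 4 of 30 list genes and the highest 12, against 0 and 4 in BJ. By mean log2 values 4 members passed as higher, with a median of 0.55.

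Genes of cholesterol synthesis and uptake were higher at day 8 as a pathway. Of 25 measured members 15 were at least 2-fold higher and 1, PMVK, was lower (median 1.18). FDFT1, which makes squalene, ranged over 7.695, 598 and 1410.0 at day 8 and 1.01, 96.2 and 638 in BJ, the lowest, median and highest cell. The groups overlapped, but 39 day 8 cells lay above every BJ cell. FDPS, which makes farnesyl diphosphate, ranged over 48.7, 708 and 2287 at day 8 and 0, 168 and 676 in BJ, with 48 day 8 cells above, and DHCR7, the last reductase of the pathway, averaged 91.8 at day 8 and 24.97 in BJ. The squalene epoxidase SQLE averaged 68.2 at day 8 and 24.9 in BJ. The median day 8 cell had 19 of 25 genes detected and the median BJ cell 15, and 29 day 8 cells had more than any BJ cell. Fatty acid and lipid storage genes had 3 members higher and 2 lower of 24, under the share of calls over all genes, or 6 and 1 by mean log2 values.

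The letters CCAAT, the box bound by NF-Y, a factor known to act beside SREBP at sterol genes, were found on either strand in 15 of 18 (83.3%) promoters of the cholesterol list that had a RefSeq entry, against 37.4% of promoters of all measured genes, 35.3% of higher genes and 35.5% of lower genes. The 15 include members that were not called higher at day 8, such as LSS and SREBF2. This share thus describes the list and not the difference from BJ. In all 9 motifs were searched on both strands. Shares among promoters of higher and of lower genes were 1.77% and 2.21% for the octamer ATGCAAAT, 2.40% and 2.07% for the SOX letters AACAATG, 12.6% and 13.2% for the KLF letters CCCCACCC, and 7.92% and 8.90% for the E-box CACGTG. They were 4.31% and 4.28% for the AP-1 letters TGACTCA and 15.3% and 15.5% for the antioxidant element TGACNNNGC. The sterol element TCACCCCAC was found in 1 of the 18 and in 0.413% of promoters of all measured genes. FDPS (chr1:155308616-155308915, plus strand) and DHCR7 (chr11:71448344-71448643, minus strand) are shown on the strand of the gene as members of the list that were higher at day 8, with CCAAT or its complement ATTGG in capitals.
FDPS: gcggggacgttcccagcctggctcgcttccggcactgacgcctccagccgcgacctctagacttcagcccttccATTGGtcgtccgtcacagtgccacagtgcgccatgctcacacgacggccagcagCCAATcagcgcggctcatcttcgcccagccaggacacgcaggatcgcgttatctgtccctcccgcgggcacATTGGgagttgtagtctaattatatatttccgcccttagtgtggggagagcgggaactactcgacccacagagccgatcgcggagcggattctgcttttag
DHCR7: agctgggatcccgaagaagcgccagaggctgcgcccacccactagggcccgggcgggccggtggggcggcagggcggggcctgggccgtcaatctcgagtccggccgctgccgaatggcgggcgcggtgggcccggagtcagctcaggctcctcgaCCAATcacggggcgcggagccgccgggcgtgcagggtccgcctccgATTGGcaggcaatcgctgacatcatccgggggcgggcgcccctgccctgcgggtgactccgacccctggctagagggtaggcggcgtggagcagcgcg

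Oxidative phosphorylation genes had a median slightly above that of all genes. Of 49 measured subunits 6 were at least 2-fold higher and 1 lower, with a median of 0.47, or 1.03 by mean log2 values, where 27 passed as higher. The ATP synthase subunit ATP5A1 averaged 1213 at day 8 and 404 in BJ, the complex I subunit NDUFS1 84.3 at day 8 and 24.1 in BJ, and the complex II subunit SDHA 80.8 at day 8 and 29.5 in BJ. ATP5H was the lower one, at 972 at day 8 and 2918 in BJ, with 63.98% of its BJ total in 1 cell and a difference of mean log2 values of the opposite sign (0.21). Housekeeping genes showed a median of 0.33 (0.69 by mean log2), and proteasome genes 0.30 (0.83) with none past the threshold by means. A difference of this size was thus shared by lists of commonly detected genes. The median cell also had more detected genes at day 8 (5915) than in BJ (5678), and the part of this in the lists' medians was not tested.

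Glycolysis and sugar transport genes had 3 higher and 3 lower of 24 (median 0.28), near the shares over all measured genes (15.3% higher and 15.8% lower). Transport differed by carrier: the glucose transporter SLC2A1 averaged 124 at day 8 and 45.3 in BJ and the monocarboxylate carrier SLC16A1 81.4 at day 8 and 29.9 in BJ, while SLC16A3, which exports lactate, averaged 0.944 at day 8 and 23.8 in BJ. LDHB averaged 3311 at day 8 and 1167 in BJ, and LDHA 2425 at day 8 and 1226 in BJ (log2 ratio 0.98).

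Aldo-keto reductases and other targets of the antioxidant factor NRF2 had 7 of 24 measured members higher and 1, HMOX1, lower (median 0.47). Of the 24, 4 were measured through the day 8 mean alone, which favours a higher call. By mean log2 values 8 were higher and 2 lower. The 3 AKR1C genes lay furthest above BJ. AKR1C1 is described above, AKR1C2 averaged 25.1 at day 8 and 0.108 in BJ, and AKR1C3 135 at day 8 and was listed at 0 in BJ. These genes are close in sequence, so reads may be split among them. The classical targets NQO1 (543 at day 8 and 416 in BJ), GCLM (4.96 at day 8 and 6.06 in BJ) and SLC7A11 (13.9 at day 8 and 9.58 in BJ) lay within 2-fold.

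Most cell cycle genes had means within 2-fold. Of 36 G2 and M phase genes none was higher and 4 were lower (median -0.20). Of 33 S phase genes 2 were higher and 4 lower (median 0.11), or 4 and 2 by mean log2 values. TOP2A, a topoisomerase of dividing cells, ranged over 0, 14.8 and 288 at day 8 and 0, 22.3 and 608 in BJ, and CCNB1, a mitotic cyclin, averaged 294 at day 8 and 203 in BJ. The share of cells with TOP2A was lower at day 8, at 66.3% of day 8 cells (interval 55.7 to 75.8%) and 90.2% of BJ cells (82.2 to 95.4%). Among 26 measured CDK inhibitors and p53 targets 5 were higher and 6 lower, or 5 and 2 by mean log2 values. CDKN2A, which encodes p16, averaged 26.6 at day 8 and 10.2 in BJ, and CDKN1A 32.1 at day 8 and 58.5 in BJ, within 2-fold.

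S100 genes, which encode small calcium-binding proteins, had 7 of 12 measured members higher and none lower, with 4 of the 12 measured through the day 8 mean alone (median 1.54). S100A4, one of the highest RNAs of the day 8 cells, ranged over 28.2, 13192 and 40714 at day 8 and 21.6, 2499 and 15295 in BJ, and S100A10, the partner of annexin A2, averaged 4494 at day 8 and 1319.9 in BJ. S100A6 was at like levels, 8427 at day 8 and 7895 in BJ. Of 10 measured annexins 4 were higher and 1, ANXA6, lower; after ANXA3, ANXA4 was furthest up, at 256 at day 8 and 51.2 in BJ, while ANXA2 averaged 4339 at day 8 and 3675 in BJ. The IGF axis had 7 of 14 higher and 2 lower, with 5 of the 14 measured through the day 8 mean alone, and 4 higher and 2 lower by mean log2 values. IGFBP5 and IGFBP6 averaged 231 and 463 at day 8, against 26.4 and 71.4 in BJ, and IGFBP3 and IGFBP7 34.5 and 169 at day 8 against 374 and 634 in BJ.

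Stress and immune genes were on balance lower or divided. The unfolded protein and integrated stress response list had 9 of 29 lower and 2 higher (median -0.46), with the stress factor DDIT3 at 28.3 at day 8 and 93.6 in BJ and the chaperone HSPA5 at 338 at day 8 and 273 in BJ. Interferon response genes had 10 of 24 lower and 3 higher (median -0.53), but none passed as lower by mean log2 values. MX1, an antiviral GTPase, stood apart, at 44.1 at day 8 and 3.37 in BJ, detected in 65.2% of day 8 cells and 3.26% of BJ cells. Inflammatory genes were split by member, 5 higher and 6 lower of 17: the chemokine CXCL12 averaged 2.23 at day 8 and 83.7 in BJ and IL6 4.65 at day 8 and 44.4 in BJ, while IL1B averaged 217 at day 8 and 14.7 in BJ and CXCL1 70.001 at day 8 and 16.1 in BJ. Of 9 measured metallothioneins 2 were lower and 2, MT1A and MT1G, were higher, or 2 lower and none higher by mean log2 values (median -0.15). MT2A and MT1E, the lower ones, averaged 2089 and 396 at day 8, against 10751 and 2281 in BJ, and MT1G 59.8 at day 8 and 10.9 in BJ.

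**Figure D5:**
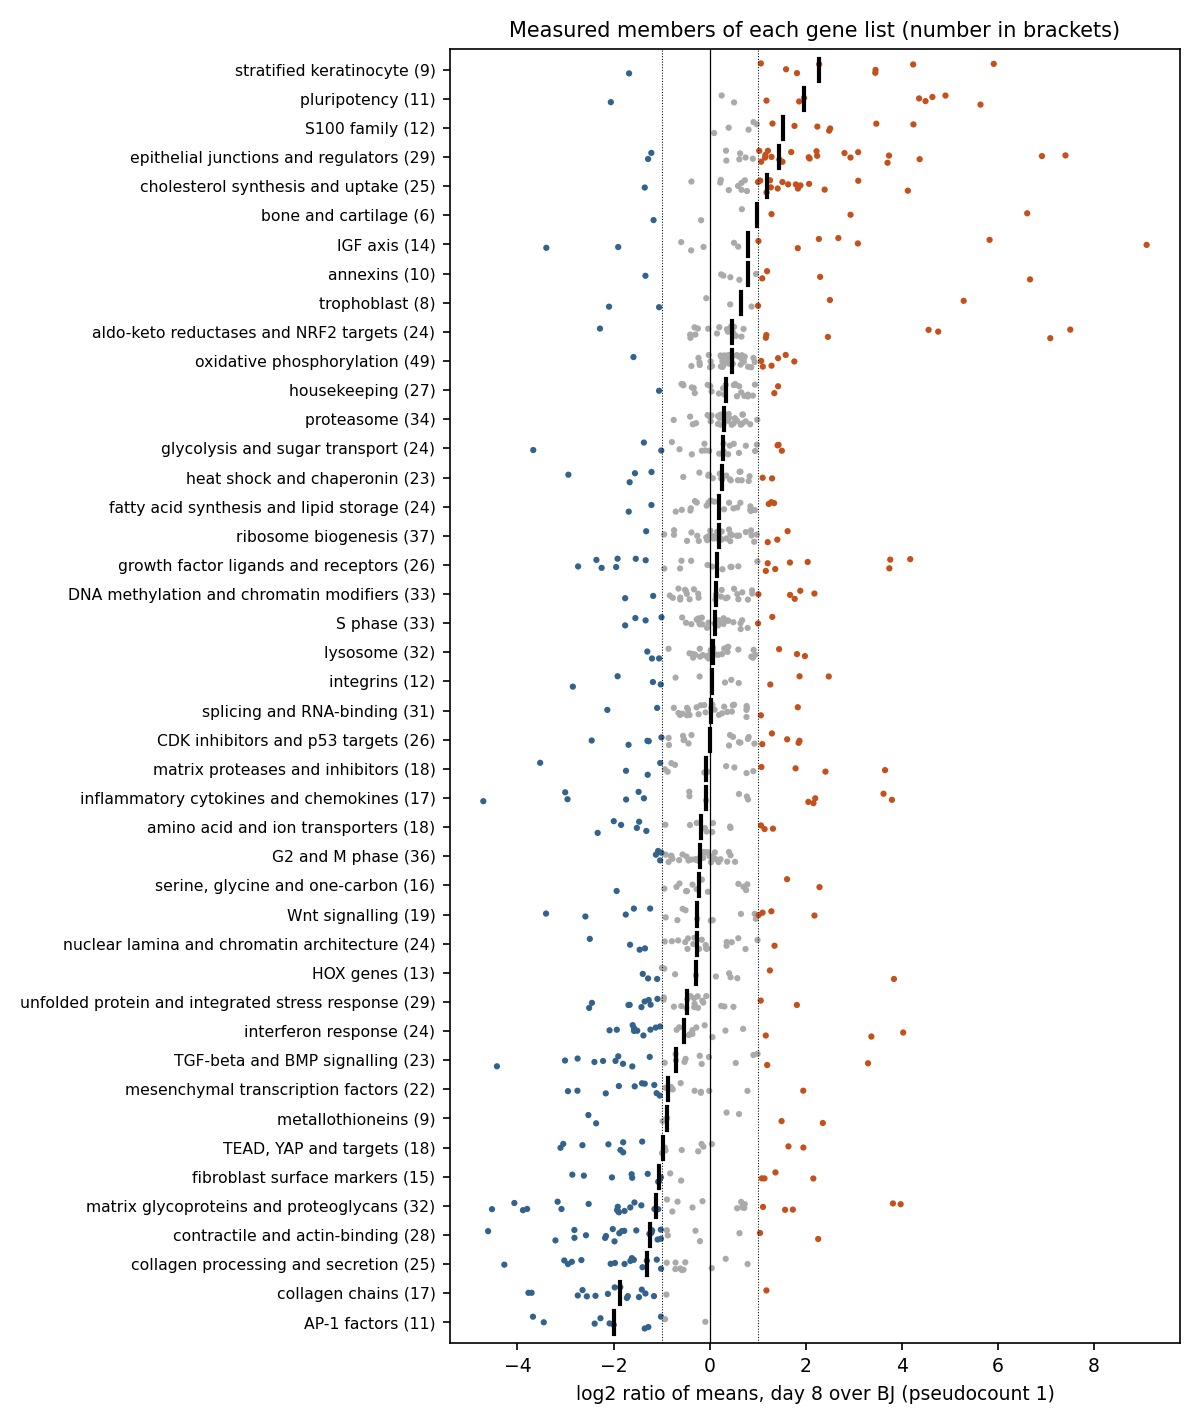
Log2 ratio of means, day 8 over BJ, for the measured members of each gene list with at least 6 of them, 1 point per gene, with the list median as a black bar and the 2-fold threshold as dotted lines. AP-1 factors and collagen chains have the lowest medians (-1.997 and -1.86); those of stratified keratinocyte and pluripotency genes (2.28 and 1.97) rest on members measured through day 8 alone (7 of 9 and 8 of 11), and with no filter they are 0.19 and 0.18.

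Markers of other cell types were checked for every list. Of 13 endothelial genes 4 were measured, all through the day 8 mean alone, and 3 were higher, or 1 by mean log2 values. TEK, an angiopoietin receptor, averaged 14.2 at day 8 and 0.513 in BJ, but the defining genes CDH5 and KDR were detected in 0 day 8 cells and PECAM1 in 2. Summed endothelial levels ran to 131 at day 8 and 34.3 in BJ, with a lowest cell at 0 at day 8 and 0 in BJ. Of 16 blood and immune genes 4 were measured and the 3 globin genes were higher, 3 of the 4 being measured through the day 8 mean alone. Without the day 8 cell with most epithelial genes 2 blood genes were measured and 1 was higher, without cells over 20% small RNA 3 were measured and 2 were higher, and by mean log2 values none passed. HBA2, an adult alpha globin, averaged 60.5 at day 8, in 9.78% of cells, and was listed at 0 in BJ, while PTPRC was detected in 0 cells of either group. Summed blood levels ran from 0 to 2439 at day 8 and from 0 to 145 in BJ. Of 15 trophoblast genes 8 were measured, 3 higher and 2 lower. HAND1, a factor of extra-embryonic and lateral mesoderm, averaged 41.4 at day 8 and 0.0855 in BJ and was detected in 51.1% of day 8 cells and 4.35% of BJ cells, whereas GATA3 and CDX2 were listed at 0 at day 8. Neural genes had 2 of 5 measured members higher, MAP2 (8.11 at day 8 and 0.775 in BJ) and STMN2 (236 at day 8 and 55.3 in BJ), and TUBB3 lower, with SOX1 and DCX detected in 0 cells. Of 14 mesendoderm and endoderm genes 1 was measured, AFP at 1.12 at day 8 and 0.079 in BJ, and T and GSC were listed at 0 at day 8. Bone and cartilage genes were measured for 6 of 12, 3 of them higher with SPP1, or 1 by mean log2 values, and adipocyte genes for 2 of 9, PPARG (5.03 at day 8 and 0.0959 in BJ) and CFD (3.26 at day 8 and 0.0404 in BJ), both higher. Both adipocyte genes were measured through the day 8 mean alone, and neither passed by mean log2 values. Whether cells of another type add to the results above was not tested.

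Levels at the other times place the day 8 values, though each pair of groups is again 2 tables. FN1 averaged 1181 in BJ and 971 at day 2, then 50.1 at day 8, and at day 16 97.9 in positive and 847 in negative cells. In the same order COL1A1 averaged 635, 264, 45.6, 7.75 and 1162. Day 8 thus had the lowest FN1 mean of the 5 groups. ANXA3 averaged 6.502, 17.3, 763, 186 and 65.6, and AKR1C1 1.897, 27.2, 526, 102 and 119.8, so both had their highest mean at day 8. H19 averaged 0.308, 156, 715, 128 and 1174, with its highest mean in the negative fraction, and CD24 0.841, 7.84, 311, 1472 and 225, with its highest in the positive fraction.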

How the data were processed

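Single-cell RNA of 5 groups was deposited as FPKM tables, 1 per group with 96 cells each. Per the submitters' processing notes, STAR, Cuffnorm and the hg19 build were used; versions, depth, the gene annotation and the treatment of doublets are not given in the sources used here. The deposited FPKM of each cell were rescaled here to 1000000. Doublets were not called; leaving out the 5% of cells with most genes was tried.

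Day 8 and BJ were compared by the log2 ratio of mean values with a pseudocount of 1, over genes whose mean reached 1 in either group, and called at 2-fold. Intervals of shares are exact Clopper-Pearson 95% intervals and, like the limit of 3 counts for a share of 0, cover counting error only. With 1 culture a group, no test between groups was run. The ratio and the call were tried on simulated data. The planted changes were much larger than 2-fold and lay in genes well above the filter, so calls near 2-fold or at low means were not tested.

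Named genes are the 15 highest and 15 lowest under the conditions given above, members of 52 gene lists with the largest ratios and their well-known members, and genes in at least 90% of cells of one group and at most 10% of the other. Of the 15 lowest, 14 are named, and 1 gene and a few list members are not reported here. The comparison and the lists were chosen with earlier results of these data known. Promoters came from RefSeq (GRCh38.p14); 9932 of 12720 measured genes matched, 509 by an older symbol. Python 3.11.15, numpy 2.4.6, pandas 2.3.3, scipy 1.17.1 and matplotlib 3.10.9 were used. The alternatives were other scalings, pseudocounts, filters on genes and cells, and averages over cells.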

Additional observations from a re-analysis of the deposited data

How the results depend on the processing

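The 16 alternatives, 2 of them chosen after seeing the data, left all 480 values of the 30 named genes on the same side. These genes were picked for large differences in the same cells, so this outcome was nearly fixed in advance and is no independent check. The counts depended most on how cells were averaged and on low values. With a pseudocount of 10, 471 genes were higher at day 8 and 506 lower, and with a mean of 10 or more required, 869 were higher and 945 lower. By the difference of mean log2 values 630 genes were lower, and by means without the 5% highest cells 919 were lower and 2132 higher; the cause was not tested for these, but fewer genes enter under the higher mean. Scaling on housekeeping genes gave 2420 higher and 2090 lower and moved the median of all genes to 0.16. Of 776 list medians under the alternatives 741 stayed on their side of the 2-fold threshold, though some moved far within it, and 35 crossed it; none that had passed it changed sign, while medians near 0, such as those of HOX genes and integrins, changed sign between scalings. With no filter on low values the median was 0.18 for pluripotency and 0.19 for stratified keratinocyte genes, and with a pseudocount of 10 it was 0.42 and 0.49. No paired analysis was possible because the labels give the cells no numbers that tie the groups to each other, and no replicate could be left out because the labels tell no cultures of a group apart. Unknown read depth limits what a share of cells can show for genes at low level.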

Other observations

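Several further groups of genes are given by their counts and single members, beside 15.3% higher and 15.8% lower over all genes. Among DNA methylation and chromatin genes 5 of 33 were higher and 2 lower. The histone demethylase KDM1A averaged 94.6 at day 8 and 26.996 in BJ, while UHRF1, which keeps DNA methylation through replication, averaged 9.199 at day 8 and 33.5 in BJ. In the nuclear lamina list 4 of 24 were lower and 1 higher, with the linker protein SUN2 at 1.44 at day 8 and 12.7 in BJ and the lamin B receptor LBR at 46.1 at day 8 and 17.5 in BJ. HOX genes, which record position along the body axis, had 2 of 13 higher and 3 lower, or 1 and 0 by mean log2 values. HOXA10 averaged 39.2 at day 8 and 65.1 in BJ, within 2-fold, and HOXD1 13.5 at day 8 and 0.0113 in BJ. Transporters of amino acids and ions had 3 of 18 higher and 6 lower, heat shock and chaperonin genes 2 of 23 higher and 4 lower, ribosome biogenesis genes 3 of 37 higher and 1 lower, lysosomal genes 3 of 32 higher and 3 lower, splicing and RNA-binding genes 2 of 31 higher and 2 lower, and genes of serine, glycine and one-carbon metabolism 2 of 16 higher and 1 lower. By mean log2 values the counts were 5 higher and 2 lower for heat shock, 11 and 0 for ribosome biogenesis, 8 and 0 for lysosomal, 5 and 0 for splicing and 4 and 1 for serine genes, so the balance depended on the scale. Over all 12720 measured genes this scale gave 1619 higher and 630 lower, so the balance moved the same way there. The small heat shock protein HSPB1 averaged 43.5 at day 8 and 341 in BJ, and the lysosomal protease CTSL 514 at day 8 and 129 in BJ.

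Genes present in nearly every cell of one group and in a minority of the other were picked after their values were seen. Of 1693 genes detected in at least 90% of day 8 cells, 15 were detected in under 50% of BJ cells, among them KRT8, H19, IGF2 and SPP1. The retinoic acid binding protein CRABP2 averaged 249 at day 8 and 15.1 in BJ and was detected in 93.5% of day 8 and 46.7% of BJ cells. The glycogen phosphorylase PYGL averaged 107 at day 8 and 10.9 in BJ, and the kinase anchor AKAP12 62.5 at day 8 and 3.68 in BJ. Of 1365 genes detected in at least 90% of BJ cells, 43 were detected in under 50% of day 8 cells, 10 of which follow the table as described above. Others of the 43, among them ZBTB33, USP31, EML1, ING1 and MOAP1, varied with the table in part. ZBTB33 was detected in 100% of cells in BJ and at day 2, then 21.7% at day 8, and at day 16 in 97.9% of positive and 25.9% of negative cells. NNMT, a methyltransferase of nicotinamide, averaged 56.9 at day 8 and 283 in BJ, the nuclear receptor NR2F2 7.34 at day 8 and 22.5 in BJ, and the adhesion protein talin 1 (TLN1) 3.26 at day 8 and 13.2 in BJ. KIF26B, detected in 0 day 8 cells and 92.4% of BJ cells, averaged 11.1 in BJ and 9.85 at day 2, then 0.00608 at day 8, and at day 16 6.85 in positive and 4.99 in negative cells.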
